A study of Mus musculus with 4 samples.

Results

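The genes described are 8 Krüppel-like factors, *Klf2*, *Klf3*, *Klf4*, *Klf6*, *Klf7*, *Klf9*, *Klf10* and *Klf13*, taken by symbol from the 55367 gene names of the deposited count table. All 8 were found and all 8 passed the filter on low counts, which kept 16945 genes. The table holds 9 other genes of the family. RNA came from endothelial cells of C57BL/6 mice that carried subcutaneous tumours of KPC cells, a mouse pancreatic cancer line. In the anti-CD93 group the mice had been given, by intraperitoneal injection 48 hours before the cells were taken, an antibody to CD93, which is a membrane receptor on endothelium. The control IgG mice had been given a control rat IgG on the same schedule. Tumours were digested with Liberase and cells that carried CD31 but not CD45 were sorted, in both groups alike, and each group had 2 libraries. Whether the 2 libraries of a group were separate mice or pools is not stated in the labels. The p-values therefore reflect the spread among the 4 libraries, which may be technical.

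Krüppel-like factors are transcription factors that bind GC-rich and CACCC-containing DNA through zinc fingers near the end of the protein. In endothelial cells KLF2 and KLF4 are raised by steady blood flow, through the kinases MEKK3, MEK5 and ERK5 and the MEF2 factors, and they favour nitric oxide production and low clotting and adhesion. Other members act mainly as repressors, KLF3 by recruiting CtBP proteins and KLF9, KLF10 and KLF13 by recruiting SIN3. Several members are also early response genes, which change quickly when cells are stressed or a tissue is taken apart.

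The sequence upstream of the 3 most abundant members is shown because MEF2, the factor that carries the flow signal, binds DNA near *Klf2*. Each sequence is RefSeq's for GRCm38.p6, written from 5′ to 3′ on the gene's strand, and stops before the first base of the gene in the deposited annotation. Capitals mark a MEF2 site, CACCC or CCGCCC, searched on both strands, where GGGTG and GGGCGG are the reverse-strand forms of CACCC and CCGCCC. The *Klf2* sequence is chr8:72318812-72319032 on the plus strand, *Klf4* is chr4:55532476-55532725 on the minus strand and *Klf6* is chr13:5861239-5861481 on the plus strand.
Klf2: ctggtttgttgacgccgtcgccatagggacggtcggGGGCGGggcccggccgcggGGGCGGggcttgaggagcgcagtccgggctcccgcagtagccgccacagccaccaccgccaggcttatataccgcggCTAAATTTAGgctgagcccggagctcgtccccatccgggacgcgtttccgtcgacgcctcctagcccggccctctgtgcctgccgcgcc
Klf4: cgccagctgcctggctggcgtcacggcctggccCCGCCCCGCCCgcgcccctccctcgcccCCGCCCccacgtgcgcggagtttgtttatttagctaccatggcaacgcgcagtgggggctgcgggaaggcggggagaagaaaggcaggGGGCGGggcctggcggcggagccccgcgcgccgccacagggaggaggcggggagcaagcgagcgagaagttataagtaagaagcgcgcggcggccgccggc
Klf6: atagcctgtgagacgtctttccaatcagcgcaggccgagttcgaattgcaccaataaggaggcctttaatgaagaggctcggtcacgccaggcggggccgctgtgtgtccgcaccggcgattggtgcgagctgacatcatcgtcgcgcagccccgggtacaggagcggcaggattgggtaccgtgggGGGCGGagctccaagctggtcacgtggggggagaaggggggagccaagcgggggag

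Of the 7 members with a RefSeq window (the 250 bases before the start), 1 held a MEF2 site, namely *Klf2*, where CTAAATTTAG begins at position -118 from the RefSeq start. Such a site was present in 2.92% of the 32851 RefSeq windows of the same length. The *Klf7* window lay wholly inside the gene as the deposited annotation places it. CCGCCC occurred 2 times in the *Klf2* window, 4 times for *Klf4* and 1 time for *Klf6*, and 32.7% of all windows held it. CACCC occurred 1 time in the *Klf2* window, within bases that the deposited annotation places inside the gene and that are not printed, and 0 times for *Klf4* and *Klf6*, against a share of 52.0% over all windows. A match of letters is a description of the window only.

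The assigned reads numbered 17813993 and 13808077 in anti-CD93 replicates 1 and 2, and 12264231 and 9364294 in control IgG replicates 1 and 2. Control IgG replicate 2 stood apart: 27718 genes were detected in it, against 23796 to 25430 in the other 3 libraries, and olfactory and vomeronasal receptor genes took 359.6 CPM (reads per 1000000 assigned reads) in it, against 52.0 to 56.6 CPM in the others. Log2 fold changes of named genes that moved across 0 or by over 1.5 times without it are also given without it. The targeted gene *Cd93* had 1716 and 1514 CPM, from here on scaled by TMM, in anti-CD93 libraries and 1530 and 1759 CPM in control IgG libraries, which overlap. The log2 fold change of *Cd93* was -0.026 with all libraries and 0.077 without control IgG replicate 2. The antibody acts on the protein, so the RNA level of *Cd93* is no check of the labels. The sorted cell type was present: 12 of 12 endothelial markers had reads, with a summed level of 10891 and 11134 CPM of all reads in anti-CD93 libraries and 11196 and 12651 CPM in control IgG libraries.

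Levels of different genes are compared as CPM per kilobase of merged exons. On that scale *Klf6*, *Klf2* and *Klf4* formed the upper group, with means over the 4 libraries of 118.7, 112.9 and 102.1 CPM per kilobase. Their ranges overlap, from 68.7 to 137.7 for *Klf6*, 69.8 to 145.4 for *Klf2* and 74.5 to 119.9 for *Klf4*, so the 3 cannot be put in order beyond the spread. *Klf6* was the highest of the 8 genes in both anti-CD93 libraries, and *Klf2* was the highest in both control IgG libraries. Among all tested genes *Klf6* ranked 187 and 170 in anti-CD93 libraries and 188 and 502 in control IgG libraries. *Klf2* ranked 421 and 263 in anti-CD93 libraries and 173 and 225 in control IgG libraries.

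The remaining members kept the same order in all 4 libraries. *Klf10* ranged from 30.3 to 39.0 CPM per kilobase, below every library's value for the upper 3 genes. *Klf13* followed at 21.3 to 25.4 and *Klf7* at 17.5 to 20.7, and neither range touches its neighbour's. *Klf3*, at 8.87 to 14.8, and *Klf9*, at 6.54 to 10.5, overlap in range although *Klf3* was higher in each library. Deposited gene lengths merge the exons of all isoforms, from 1847 bases for *Klf2* to 11243 bases for *Klf3*, so a gene with rarely used exons reads low on this scale.

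**Figure D1:**
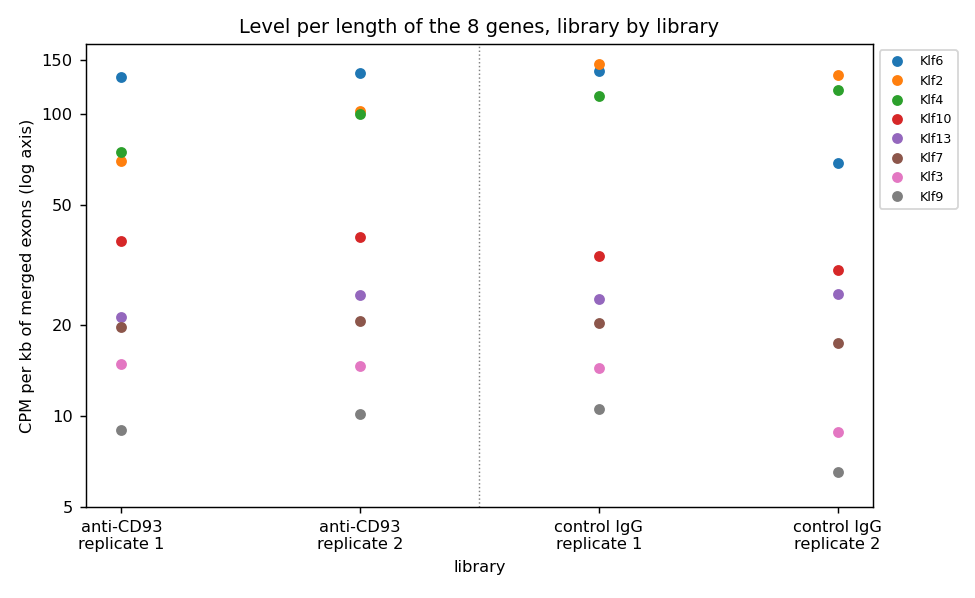
Level of each of the 8 genes per kilobase of merged exons (log axis) in the 2 anti-CD93 libraries, left of the dotted line, and the 2 control IgG libraries, right of it, with 1 point per gene and library. *Klf6*, *Klf2* and *Klf4* exchange places in the upper group, whereas the 5 lower genes keep their order from *Klf10* to *Klf9*.

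The study's comparison asks how blocking CD93 changed expression in tumour endothelium, and among the 8 genes the flow-induced pair lay lower with anti-CD93 in every library while none of the 8 passed the test. With edgeR's quasi-likelihood test, 0 of 8 had an adjusted p under 0.05, as did 0 of all 16945 genes (0%). Limma-voom and DESeq2 also called 0 of the 8, and over all genes DESeq2 called 5 (0.015%) and limma-voom 0 (0%). At an unadjusted p under 0.05 edgeR counted 1 of the 8, *Klf2*, where 4.49% of all tested genes did. The groups did not overlap in 4 of the 8, 2 lower and 2 higher, where 39.8% of all tested genes had no overlap, 19.7% lower and 20.1% higher. With only 8 genes, these counts are close to the shares over all tested genes. Of the 8, 5 had a log2 fold change above 0, as did 49.1% of all tested genes. The members' median log2 fold change was 0.13, against -0.0092 over all tested genes. Without control IgG replicate 2, 2 of the 8 lay above 0 and their median was -0.051, against 0.0037 over all tested genes. In bulk RNA fewer cells of a type and less RNA per cell cannot be told apart.

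*Klf2* (chromosome 8, 72319033 to 72321656, plus strand, GRCm38), the flow-induced factor that raises endothelial nitric oxide synthase and thrombomodulin, had 2281 and 2588 reads in anti-CD93 replicates 1 and 2, or 128.9 and 188.0 CPM. In control IgG replicates 1 and 2 it had 3292 and 2320 reads, or 268.5 and 248.4 CPM. Both anti-CD93 libraries were below both control IgG libraries, and the anti-CD93 libraries differed more from each other than the controls did. The means were 158.4 ± 41.8 CPM with anti-CD93 and 258.5 ± 14.3 CPM with control IgG (SD, n = 2 each). The log2 fold change was -0.71 (SE 0.22), or 0.613-fold with a 95% interval of 0.434 to 0.865, with adjusted p = 0.812 by edgeR and an unadjusted p of 0.0112. It stayed below 0 without each library in turn, at -0.45 without anti-CD93 replicate 1, -1.00 without anti-CD93 replicate 2, -0.65 without control IgG replicate 1 and -0.76 without control IgG replicate 2. The lowest adjusted p of these 4 fits was 0.168 by edgeR.

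*Klf4* (chromosome 4, 55527143 to 55532466, minus strand), which overlaps *Klf2* in its flow response and its endothelial targets and is also known as a reprogramming factor, had 4023 and 4172 reads in anti-CD93 libraries, or 227.3 and 303.1 CPM. In control IgG libraries it had 4282 and 3416 reads, or 349.3 and 365.7 CPM. Again anti-CD93 replicate 1 was the lowest library and the groups did not overlap. The means were 265.2 ± 53.6 CPM with anti-CD93 and 357.5 ± 11.6 CPM with control IgG (SD, n = 2 each). The log2 fold change was -0.43 (SE 0.19), or 0.742-fold with a 95% interval of 0.544 to 1.01 (adjusted p = 0.812 by edgeR). With 1 library left out it ran from -0.65 to -0.23. It was -0.23 without anti-CD93 replicate 1 and -0.65 without anti-CD93 replicate 2, both more than 1.5 times away from the value with all libraries.

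The pair together took 356.1 and 491.1 CPM in anti-CD93 libraries, against 617.8 and 614.1 CPM in control IgG libraries. The ratio of *Klf2* to *Klf4* per length was 0.936 and 1.02 in anti-CD93 libraries and 1.27 and 1.12 in control IgG libraries. Set against the summed endothelial markers, *Klf2* stood at 11.8 and 16.8 per 1000 CPM of markers with anti-CD93 and at 24.0 and 19.6 with control IgG. On the same scale *Klf4* stood at 20.7 and 27.1 with anti-CD93 and at 31.2 and 28.8 with control IgG. Both genes thus kept groups without overlap on this scale, though the gap between the nearest libraries of *Klf4* was small.

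**Figure D2:**
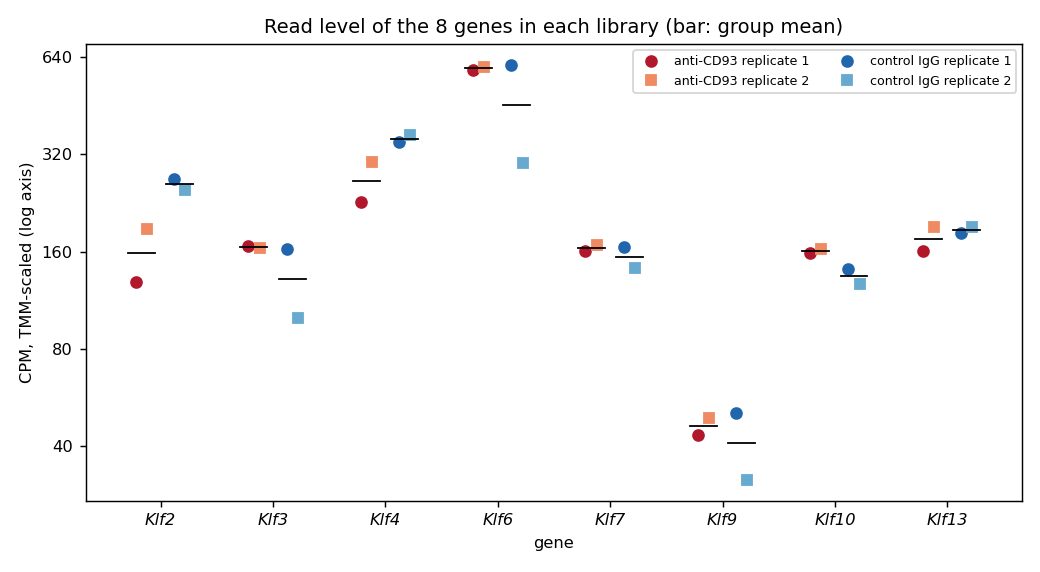
CPM of the 8 genes (log axis) in each library, with anti-CD93 in red shades left of control IgG in blue shades, circles for replicate 1, squares for replicate 2 and a bar at each group's mean. *Klf2* and *Klf4* are lower in both anti-CD93 libraries. For *Klf3*, *Klf6*, *Klf7*, *Klf9* and *Klf10* control IgG replicate 2 lies below the other 3 libraries.

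*Klf6* (chromosome 13, 5861482 to 5870394, plus strand), an injury-response factor, had 581.5 and 597.0 CPM in anti-CD93 libraries and 604.8 and 301.6 CPM in control IgG libraries. Control IgG replicate 1 lay above both anti-CD93 libraries and control IgG replicate 2 far below them, so the groups overlap. The log2 fold change was 0.38 (SE 0.30, adjusted p = 0.813 by edgeR). It was -0.039 without control IgG replicate 2 and 0.97 without control IgG replicate 1, so 1 library decided its sign. *Klf7* (chromosome 1, 64029447 to 64122282, minus strand), a close relative of *Klf6* known for axon growth in neurons, had 160.4 and 168.0 CPM in anti-CD93 libraries and 164.9 and 142.1 CPM in control IgG libraries. Its groups overlap, and its log2 fold change was 0.097 (SE 0.17) with all libraries and -0.0082 without control IgG replicate 2.

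*Klf3* (chromosome 5, 64803388 to 64832901, plus strand), the CtBP-dependent repressor, had 166.7 and 164.4 CPM in anti-CD93 libraries and 162.6 and 99.8 CPM in control IgG libraries. The groups do not overlap, but control IgG replicate 1 lay within 2 CPM of the nearest anti-CD93 library. The log2 fold change was 0.33 (SE 0.24, adjusted p = 0.812 by edgeR). It was 0.025 without control IgG replicate 2 and 0.73 without control IgG replicate 1. *Klf9* (chromosome 19, 23141226 to 23168134, plus strand), which glucocorticoids induce, had 43.3 and 48.9 CPM in anti-CD93 libraries and 50.7 and 31.5 CPM in control IgG libraries. The 2 control values enclose both anti-CD93 values. Its log2 fold change was 0.16 (SE 0.25) with all libraries, -0.14 without control IgG replicate 2 and 0.55 without control IgG replicate 1.

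*Klf10* (chromosome 15, 38291463 to 38300706, minus strand), an early target of TGF-beta, had 157.9 and 163.0 CPM in anti-CD93 libraries and 141.8 and 126.8 CPM in control IgG libraries. Both anti-CD93 libraries were above both controls, by a small margin. The log2 fold change was 0.26 (SE 0.17), or 1.19-fold with a 95% interval of 0.911 to 1.57 (adjusted p = 0.812 by edgeR). It was 0.18 without control IgG replicate 2 and 0.34 without control IgG replicate 1, and it stayed above 0 without each library. *Klf13* (chromosome 7, 63886351 to 63938915, minus strand), a SIN3-binding factor, had 160.8 and 190.0 CPM in anti-CD93 libraries and 183.1 and 191.2 CPM in control IgG libraries. Its groups overlap and its log2 fold change was -0.094 (SE 0.17), or 0.030 without anti-CD93 replicate 1.

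The spread between replicates differed among the 8 genes. In the anti-CD93 group *Klf2* was lower in replicate 1 than in replicate 2 by a log2 difference of -0.55 and *Klf4* by -0.42, where the median absolute difference over all genes was 0.17. In the control IgG group these 2 genes differed by 0.11 and -0.066, where the median over all genes was 0.41. Conversely *Klf6*, *Klf3* and *Klf9* differed in the control IgG group by 1.00, 0.70 and 0.69, replicate 1 over replicate 2. In the anti-CD93 group these genes differed by -0.038, 0.020 and -0.17. *Klf7*, *Klf10* and *Klf13* differed by 0.22, 0.16 and -0.063 in the control IgG group. Their differences in the anti-CD93 group were -0.067, -0.046 and -0.24. With control IgG replicate 1 left out, 4 of the 8 genes passed the test, *Klf3*, *Klf6*, *Klf9* and *Klf10*, all higher with anti-CD93, but in that fit 26.8% of all tested genes were called. Neither *Klf2* nor *Klf4* was among the 4 (adjusted p = 0.168 and 0.0983 by edgeR). Without anti-CD93 replicate 1, anti-CD93 replicate 2 or control IgG replicate 2 in turn 0 of the 8 passed, where edgeR called 0%, 0.0059% and 0.0767% of all tested genes.

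**Figure D3:**
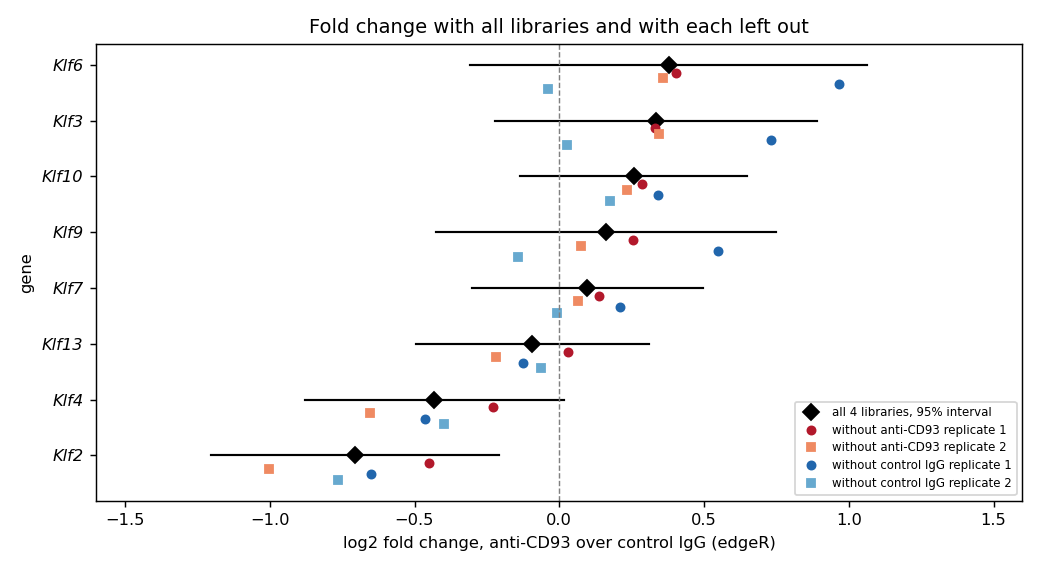
Log2 fold change of anti-CD93 over control IgG for each gene, as a diamond with its 95% interval from all 4 libraries and as small points with 1 library left out. *Klf2* and *Klf4* stay left of 0 in every fit, and *Klf6*, *Klf7* and *Klf9* cross 0 without control IgG replicate 2, as *Klf13* does without anti-CD93 replicate 1.

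The 8 genes shared little sequence with relatives or overlapping genes. The longest run of identical bases between transcripts of any 2 of the 8 was 36 bases, between *Klf3* and *Klf13*, and the longest with any other family or SP gene was 41 bases, between *Klf3* and *Klf12*, against reads of 150 bases. Exons of another gene covered 404 of the 11243 exon bases of *Klf3*, those of *Gm20033* on the opposite strand, which had 22 and 11 reads in anti-CD93 libraries and 13 and 2 reads in control IgG libraries. For *Klf7* the overlap was 4 bases, and the other 6 genes had none.

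Of the 9 other Krüppel-like factors, 5 were tested and 0 passed, and their median log2 fold change was 0.0056. *Klf5*, a factor of proliferating epithelium and smooth muscle, had 76.4 and 70.2 CPM in anti-CD93 libraries and 44.0 and 38.4 CPM in control IgG libraries, with no overlap. Its log2 fold change was 0.83 (SE 0.19, adjusted p = 0.812 and unadjusted p = 0.00232 by edgeR) and ran from 0.73 to 0.93 with 1 library left out. Of those 4 fits it passed without control IgG replicate 1 (adjusted p = 9.27e-04 by edgeR), the fit that called 26.8% of genes. Among 9 tumour epithelial markers 6 had a higher mean with anti-CD93, and 3 of the 9 were higher without overlap, where 20.1% of all tested genes were. These were *Epcam*, with 33.9 and 41.0 CPM of all reads in anti-CD93 libraries and 21.7 and 23.4 CPM in control IgG libraries, *Cdh1*, with 349.2 and 289.1 CPM in anti-CD93 libraries and 216.3 and 209.8 CPM in control IgG libraries, and *Muc1*, with 78.0 and 71.8 CPM in anti-CD93 libraries and 35.1 and 48.0 CPM in control IgG libraries, named after their values were seen. The keratin genes of the list, which make up most of its sum, overlapped. The summed level of the 9 was 2445 and 2060 CPM in anti-CD93 libraries and 1742 and 2510 CPM in control IgG libraries, and that of 9 pericyte and smooth muscle markers was 541.9 and 414.7 CPM in anti-CD93 libraries and 495.4 and 473.2 CPM in control IgG libraries. Their part in the *Klf5* values was not tested.

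*Klf11*, *Klf12* and *Klf16* had overlapping groups and log2 fold changes of 0.081, -0.062 and 0.0056, and of 0.021, -0.10 and 0.24 without control IgG replicate 2. *Klf8* was at 3.56 to 4.46 CPM in anti-CD93 libraries and 4.89 to 5.89 CPM in control IgG libraries. *Klf1*, *Klf14*, *Klf15* and *Klf17* were not tested and had 0 to 6 reads per library. *Klf17* had 0 reads in all 4, which allows up to 0.168 and 0.217 CPM in anti-CD93 libraries and 0.245 and 0.320 CPM in control IgG libraries (3 reads each, counting error only).

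Of 9 SP factors, zinc finger relatives that bind GC boxes, 4 were tested and 0 passed. *Sp1*, which is expressed in most cells, had 131.8 and 130.7 CPM in anti-CD93 libraries and 124.4 and 93.6 CPM in control IgG libraries. *Sp3* had 97.4 and 93.2 CPM in anti-CD93 libraries and 99.1 and 52.0 CPM in control IgG libraries, so that control IgG replicate 2 was the low library as for *Klf3* and *Klf6*. The log2 fold changes of *Sp1* and *Sp3* were 0.27 and 0.33 with all libraries and 0.076 and -0.057 without that one. *Sp2* had one of -0.082, or 0.10 without control IgG replicate 2, and *Sp4* one of 0.27.

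Genes that carry or restrain the flow signal to *Klf2* and *Klf4*, from the channel PIEZO1 and the CCM proteins to ERK5 and MEF2, were all tested. Because the list mixes both kinds, its counts and median give no direction for the pathway. Of 17, 0 passed, 6 lay higher and 11 lower with anti-CD93, and the median log2 fold change was -0.087. The groups did not overlap in 4 of the genes that lay lower and 2 that lay higher, against the 39.8% over all tested genes. With 1 library left out the median ran from -0.18 to 0.0074. *Mapk7*, which encodes ERK5, had 26.8 and 30.0 CPM in anti-CD93 libraries and 30.3 and 49.8 CPM in control IgG libraries. *Hdac7*, a histone deacetylase that holds MEF2 in check, had 269.3 and 307.1 CPM in anti-CD93 libraries and 311.6 and 471.1 CPM in control IgG libraries. *Pdcd10*, whose product belongs to the CCM complex that restrains MEKK3, had 40.3 and 37.3 CPM in anti-CD93 libraries and 32.7 and 14.5 CPM in control IgG libraries. In these 3, which had the smallest p of the list, control IgG replicate 2 was the extreme library. The log2 fold changes of *Mapk7*, *Hdac7* and *Pdcd10* were -0.49, -0.44 and 0.71 with all libraries and -0.094, -0.11 and 0.25 without it.

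Of 10 genes known to be raised by KLF2 or KLF4, 8 were tested, 0 passed, 2 lay higher and 6 lower, with a median of -0.060. Without anti-CD93 replicate 1, 5 lay higher and 3 lower, with a median of 0.028. *Nos3*, the endothelial nitric oxide synthase gene, had 124.5 and 154.8 CPM in anti-CD93 libraries and 186.9 and 237.3 CPM in control IgG libraries (log2 fold change -0.60, SE 0.20, adjusted p = 0.812 by edgeR). Its log2 fold change ran from -0.77 to -0.42 with 1 library left out. As with *Klf2*, anti-CD93 replicate 1 was its lowest library. *Tek*, the angiopoietin receptor gene, had 205.0 and 246.8 CPM in anti-CD93 libraries and 270.5 and 252.4 CPM in control IgG libraries, with a log2 fold change of -0.21, which ran from -0.35 to -0.076 with 1 library left out. *Gja4*, a gap junction gene, had overlapping groups and a log2 fold change of -0.22, which was 0.19 without control IgG replicate 2. *Thbd*, which encodes thrombomodulin and was chosen after its value was seen, had one of -0.055 (SE 0.17), or -0.12 without that library.

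Among 10 genes known to be lowered by KLF2 or KLF4, all tested, 0 passed, 6 lay higher and 4 lower, with a median of 0.047, which ran from -0.013 to 0.083 with 1 library left out. *F3*, which encodes tissue factor, had 47.6 and 54.3 CPM in anti-CD93 libraries and 37.0 and 27.1 CPM in control IgG libraries (log2 fold change 0.66, SE 0.22). *Sele*, which encodes E-selectin, had 31.4 and 35.9 CPM in anti-CD93 libraries and 51.1 and 74.9 CPM in control IgG libraries (log2 fold change -0.90, SE 0.23). *Ace*, the angiotensin-converting enzyme gene, had 145.5 and 155.5 CPM in anti-CD93 libraries and 171.9 and 256.2 CPM in control IgG libraries (log2 fold change -0.51, SE 0.22), and its log2 fold change was -0.19 without control IgG replicate 2. The 3 genes had an adjusted p of 0.812 each by edgeR, and *F3* and *Sele* lay on opposite sides of 0.

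No gene of the lists drawn in the plot of fold changes by list passed by DESeq2 or limma-voom either. At an unadjusted p under 0.05 edgeR counted 1 of the other Krüppel-like factors, 0 of the SP factors, 0 of the flow-sensing genes, 1 of the genes raised and 3 of those lowered by KLF2 or KLF4, 0 corepressors, 0 corticoid genes, 1 TGF-beta or BMP gene, 4 immediate early genes and 2 endothelial markers, where 4.49% of all tested genes had such a p. Some genes, such as *Kdr* and *Tek*, stand in more than 1 list.

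**Figure D4:**
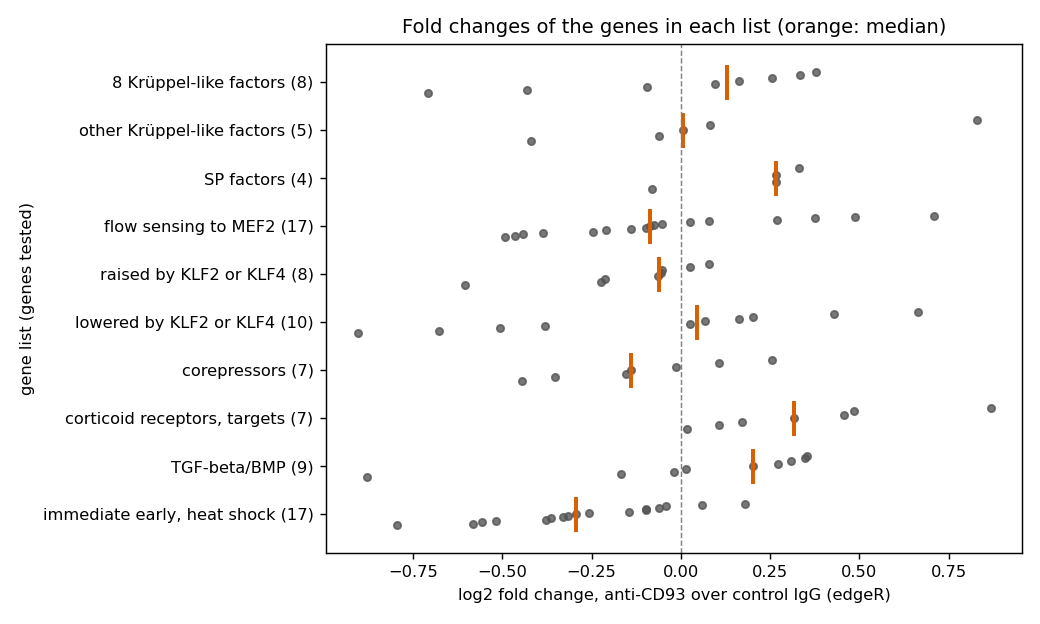
Log2 fold change of anti-CD93 over control IgG for each tested gene (grey points) of 10 gene lists, with the list's median in orange and the number of genes tested in brackets. The flow-sensing genes and the known targets of KLF2 and KLF4 lie on both sides of 0, and the immediate early list lies mostly left of it with a median of -0.29.

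Corepressors of the family were measured for the repressor members. Of 7 genes 0 passed, 2 lay higher and 5 lower, with a median of -0.14, or 3 higher and 4 lower with a median of -0.061 without control IgG replicate 2. *Ctbp1*, a partner of KLF3, had 83.3 and 90.4 CPM in anti-CD93 libraries and 96.9 and 125.1 CPM in control IgG libraries, with a log2 fold change of -0.35 that was -0.16 without control IgG replicate 2. *Sap30*, a SIN3 complex gene, had 25.8 and 29.0 CPM in anti-CD93 libraries and 36.2 and 38.2 CPM in control IgG libraries. *Hdac2*, a deacetylase of that complex, had 66.0 and 65.5 CPM in anti-CD93 libraries and 58.7 and 51.4 CPM in control IgG libraries, with a log2 fold change of 0.26 that was 0.16 without control IgG replicate 2.

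Corticoid targets, which are induced beside *Klf9*, and the corticoid receptors, which do not measure that induction, numbered 7 together. Of these, 0 passed and 7 lay higher, with a median of 0.32. Without control IgG replicate 2, 4 lay higher and 3 lower, with a median of 0.036, and *Fkbp5*, *Tsc22d3* and *Per1* were then at -0.048, -0.27 and -0.0046. *Sgk1*, a corticoid-induced kinase gene, had 136.5 and 161.3 CPM in anti-CD93 libraries and 122.4 and 94.3 CPM in control IgG libraries, with a log2 fold change of 0.46 that was 0.28 without control IgG replicate 2. The receptor genes *Nr3c1* and *Nr3c2* had log2 fold changes of 0.32 (SE 0.23) and 0.49 (SE 0.34), and in both control IgG replicate 2 was the lowest library. Without it they were at 0.036 and 0.12. Of 9 TGF-beta and BMP receptors and targets, measured for *Klf10*, 0 passed, 6 lay higher and 3 lower, with a median of 0.20, which ran from 0.043 to 0.25 with 1 library left out. *Smad7*, a feedback inhibitor of the pathway, had 240.2 and 313.6 CPM in anti-CD93 libraries and 222.0 and 225.0 CPM in control IgG libraries, and its log2 fold change was 0.31, or 0.10 without anti-CD93 replicate 2. *Skil*, another feedback gene, had a log2 fold change of 0.35 with overlapping groups, or 0.097 without control IgG replicate 2. *Tgfbi*, a secreted matrix protein gene, had one of -0.88 (SE 0.35) with 35.6 and 43.1 CPM in anti-CD93 libraries and 44.5 and 100.5 CPM in control IgG libraries. It was -0.18 without control IgG replicate 2.

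Digestion-sensitive genes lay mostly on the same side of 0 as *Klf2* and *Klf4*. Of 17 immediate early and heat shock genes 0 passed, 2 lay higher and 15 lower with anti-CD93, and in 11 the anti-CD93 libraries were both below the controls, where 19.7% of all tested genes were. Their summed level was 8770 and 9457 CPM of all reads in anti-CD93 libraries and 10564 and 12008 CPM in control IgG libraries. *Socs3*, *Nr4a1* and *Hspa1a* had the smallest p of the list, with log2 fold changes of -0.79, -0.58 and -0.56. With 1 library left out they ran from -1.16 to -0.31, -0.79 to -0.35 and -0.78 to -0.29, in each case nearest to 0 without control IgG replicate 2. The median of the list was -0.29 and, over the same 4 fits, -0.39 to -0.19, with 13 to 16 of the 17 genes lower. Of 12 endothelial markers 2 lay higher and 10 lower, with a median of -0.15, and 7 were lower without overlap, against the same 19.7%. Their summed level did not overlap either, though the nearest libraries of the groups lay close together. These were anti-CD93 replicate 2 at 11134 CPM of all reads and control IgG replicate 1 at 11196 CPM. Without control IgG replicate 2 the markers' median was -0.067, with 4 higher and 8 lower. The part of digestion and of the endothelial share in the *Klf2* and *Klf4* values was not tested.

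Markers of other cells were summed per library as CPM of all reads, and the macrophage and lymphocyte sums did not overlap between the groups while the others did. The summed level of 10 macrophage markers was 75.8 and 64.7 CPM in anti-CD93 libraries and 43.5 and 63.4 CPM in control IgG libraries, and 5 of the 10 had a higher mean with anti-CD93. The nearest libraries of the groups, at 64.7 and 63.4 CPM, lay close together. Markers of lymphocytes, in which *Klf2* is also strongly expressed, summed over 13 genes to 2.92 and 2.03 CPM in anti-CD93 libraries and 3.26 and 6.09 CPM in control IgG libraries, with 3 of the 13 higher. No lymphocyte marker exceeded 1.14 CPM in any library, so these sums rest on few reads. Macrophages and lymphocytes carry CD45, and the sort kept cells without it. The 9 fibroblast markers summed to 1764 and 2205 CPM in anti-CD93 libraries and 2120 and 2846 CPM in control IgG libraries, with 3 of the 9 higher. Erythroid markers, 7 genes with *Klf1* among them, summed to 28.5 and 18.9 CPM in anti-CD93 libraries and 9.21 and 20.4 CPM in control IgG libraries, with 4 of the 7 higher. No marker of these lists was at 0 in all 4 libraries, and their part in the values of the 8 genes was not tested.

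Likeness of profile was measured as the distance between log2 CPM values over the 4 libraries, each gene centred on its own mean, among 10240 other genes. Closest to *Klf2* were *Cmah*, *Spc24* and *Ccnjl*, at distances of 0.14, 0.14 and 0.15. *Plekhj1*, *Ttc9* and *Wdr91* were closest to *Klf4*, at 0.043, 0.052 and 0.068. *Klf2* and *Klf4* were 0.33 apart, and 35 genes were closer to *Klf2* than that while 517 were closer to *Klf4*. With 4 points a profile, many genes share a shape, and these distances are a description only.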

How the data were processed

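Per the file headers, the deposited table holds raw read counts that the authors made with featureCounts 2.0.1 by gene name, using GENCODE vM25 for GRCm38. In the recorded command no paired-end, strand or multiple-overlap option appears. Mates were therefore counted separately and strand was ignored, which cannot separate a gene from an antisense partner. The submitters' processing notes name STAR 2.7.5b and DESeq2 1.28.1. Another deposited table, called normalized, was compared with these counts, differed in 0 of 221468 cells and was not used further.

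Genes with a minimum count of 10 by filterByExpr were kept (16945), scaled by TMM and compared over all 4 libraries with the robust quasi-likelihood test of edgeR 4.0.16 in R 4.3.3, group as the only term, Benjamini-Hochberg adjusted p under 0.05. Standard errors were derived from the fold change and the F value. CPM uses reads of the tested genes, and marker sums use all reads. DESeq2 1.42.0 and limma 3.58.1 served as alternatives. The code was tested on simulated data. Named genes were the 8 members, *Cd93*, other Krüppel-like and SP factors with a mean of at least 5 CPM, 3 members of each pathway list by smallest p at the same level, and 3 nearest profiles for *Klf2* and *Klf4*. *Klf8* and the untested family genes were added to account for the family. Members and lists were chosen with earlier results of these data known. GENCODE vM21 transcripts gave the shared runs. With 9364294 to 17813993 reads per library and 2 libraries per group, precision is limited by the number of libraries.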

Additional observations from a re-analysis of the deposited data

How the results depend on the processing

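The 8 fold changes were recomputed under 14 alternatives each, 112 values in all. Of these, 104 kept direction and stayed uncalled, 4 reversed and 4 were called by edgeR. Each reversal and each call came with 1 library left out. Reversed values were -0.039 for *Klf6*, -0.0082 for *Klf7* and -0.14 for *Klf9* without control IgG replicate 2, and 0.030 for *Klf13* without anti-CD93 replicate 1. With 1 library left out the log2 fold change ran from -1.00 to -0.45 for *Klf2*, -0.65 to -0.23 for *Klf4*, 0.025 to 0.73 for *Klf3*, -0.039 to 0.97 for *Klf6*, -0.0082 to 0.21 for *Klf7*, -0.14 to 0.55 for *Klf9*, 0.18 to 0.34 for *Klf10* and -0.22 to 0.030 for *Klf13*. The number of the 8 genes called ran from 0 to 4, and of all genes from 0 to 4549. A group left with 1 library is assumed to vary like the other. Over all genes, the count of 0 became 48 with no count filter, 5 with DESeq2 and 14 with the replicate block. With the replicate number as a block 0 of the 8 genes were called, with -0.73 for *Klf2* and -0.45 for *Klf4*. Deviations of same-numbered libraries had r = -0.023 across 16945 genes. With 2 libraries per group, 1 of them standing apart, this value cannot decide whether the numbers pair the samples. The median over all genes was -0.13 with DESeq2 and -0.094 with edgeR and no count filter, both on 33419 genes. On the filtered genes it was -0.0092 in the main fit and -0.0089 with RLE scaling. With upper quartile scaling and with no scaling beyond the library total it was -0.015 and -0.016. The order of levels per length was the same for 8 of 8 genes with no scaling. Even values made up 66.3% to 74.8% of counts from 1 to 10, and halved counts called 0 of the 8. Depth limits *Klf1*, *Klf14*, *Klf15* and *Klf17*, with 0 to 6 reads per library.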
